A study of Rattus norvegicus with 20 samples.

Results

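Expression of 41 genes of the TGF-beta, activin and BMP pathway was examined in epididymal tissue of male rats. They were all genes with a probe set of their own, of 14557 such genes, whose symbol in the array annotation begins with Acvr, Bmp and a digit, Bmpr, Tgfbr, Smad, Inha, Inhb, Gdf and a digit, or Fst, or is Tgfb1, Tgfb2 or Tgfb3. Each had 1 probe set. The RefSeq gene table of the rat assembly GRCr8 holds 57 protein-coding genes under these names, and the other 16, among them Tgfb2, Tgfbr2, Bmpr2, Acvr1, Smad1, Smad4 and Smad6, were not analysed here.

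The 4 groups, named by the labels rosiglitazone, resveratrol, obese and lean control, had 5 arrays each. All rats were male ZDF animals, with the strain given as Zucker, and the labels state no age, dose or length of treatment. Obese rats of this line carry an inactivating mutation of the leptin receptor, as background knowledge, and the labels give no genotypes. The labels do not say outright that the rosiglitazone and resveratrol rats were obese, and they were set against the obese group on the title's reading that each compound was tested in this model. Obese rats ate a stock diet for 6 weeks and lean rats a standard chow, so obesity and diet cannot be told apart. Rosiglitazone, a thiazolidinedione used against diabetes, is a ligand of PPAR-gamma, the nuclear receptor needed to make fat cells. Resveratrol is a polyphenol found in grapes.

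Ligands of this family are secreted dimers that bring together type I and type II receptor kinases on the cell surface. TGF-betas, activins and some GDFs lead to phosphorylation of Smad2 and Smad3, and BMPs to that of Smad1, Smad5 and Smad9, while Smad7 is an inhibitor induced by the signal. In adipose tissue the TGF-beta and activin arm is known for holding back fat cell differentiation and for fibrosis, and several BMPs for commitment of precursors to the fat lineage.

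Values are log2 signal per probe set, made by the authors with RMA, and no level of a gene is set against that of another gene. Signal of 1282 olfactory, vomeronasal and taste receptor genes, which fat should not express, gave a measure of background, and a mean under their 95th percentile, 3.11, is called near background. By their mean over 20 arrays, 19 of the 41 genes lay above it and 22 near it, and a fold with a mean near background is approximate. The label names the tissue only as epididymal. All 13 measured fat cell markers were above background, and all 12 measured genes of epididymal epithelium and sperm were near it. Arrays correlated with Spearman coefficients of 0.884 to 0.961. The SD of signal across an array ran from 1.86 to 1.95 in rosiglitazone, 1.81 to 1.93 in resveratrol, 1.83 to 1.93 in obese and 1.73 to 1.91 in lean control arrays. Lean control replicate 3 stood apart from its group, with a mean over 15 macrophage markers of 6.45, against 4.81 to 5.31 in the other lean arrays and 5.87 to 6.48 in obese arrays. Calls of members against the lean group that changed without it are named. In bulk tissue, fewer cells of a type and less RNA per cell cannot be told apart.

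With rosiglitazone the ligand genes changed in both directions. Tgfb3, Gdf6 and Gdf15 were higher than in obese rats, and Bmp3, Gdf10 and Bmp7 lower. Of these genes only Tgfb3 and Gdf10 lay above background by their mean over all arrays. Calls of Tgfb3, Gdf10 and Gdf15 ended when any of several single arrays was left out. Between obese and lean rats Acvr1c, the type I receptor ALK7, was the only member called, and it was lower in obese rats. Resveratrol gave no call against obese rats in limma.

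In counts, called means an adjusted p under 0.05 in limma, fitted over all 20 arrays and all 14557 genes. Rosiglitazone and obese arrays differed in 6 of 41 members (14.6%), 3 higher and 3 lower, where 9% of all genes were called, 6.32% higher and 2.68% lower. At an unadjusted p under 0.05 there were 19 members, where 21.3% of all genes passed. In 4 members, Gdf6, Bmp3, Bmp7 and Inhba, these groups did not overlap, where 10.2% of all genes had no overlap. Among the 19 members above background 2 were called (10.5%), against 15.9% of the 7010 genes above background. Members' median log2 difference was 0.00, against 0.04 over all genes. The split of calls moved with the setting, with 2 higher and 8 lower under quantile normalization, 3 higher and 9 lower with the array SD as a covariate, and 4 higher and 7 lower with array weights. Without obese replicate 2 the count was 3, 1 higher and 2 lower.

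**Figure D1:**
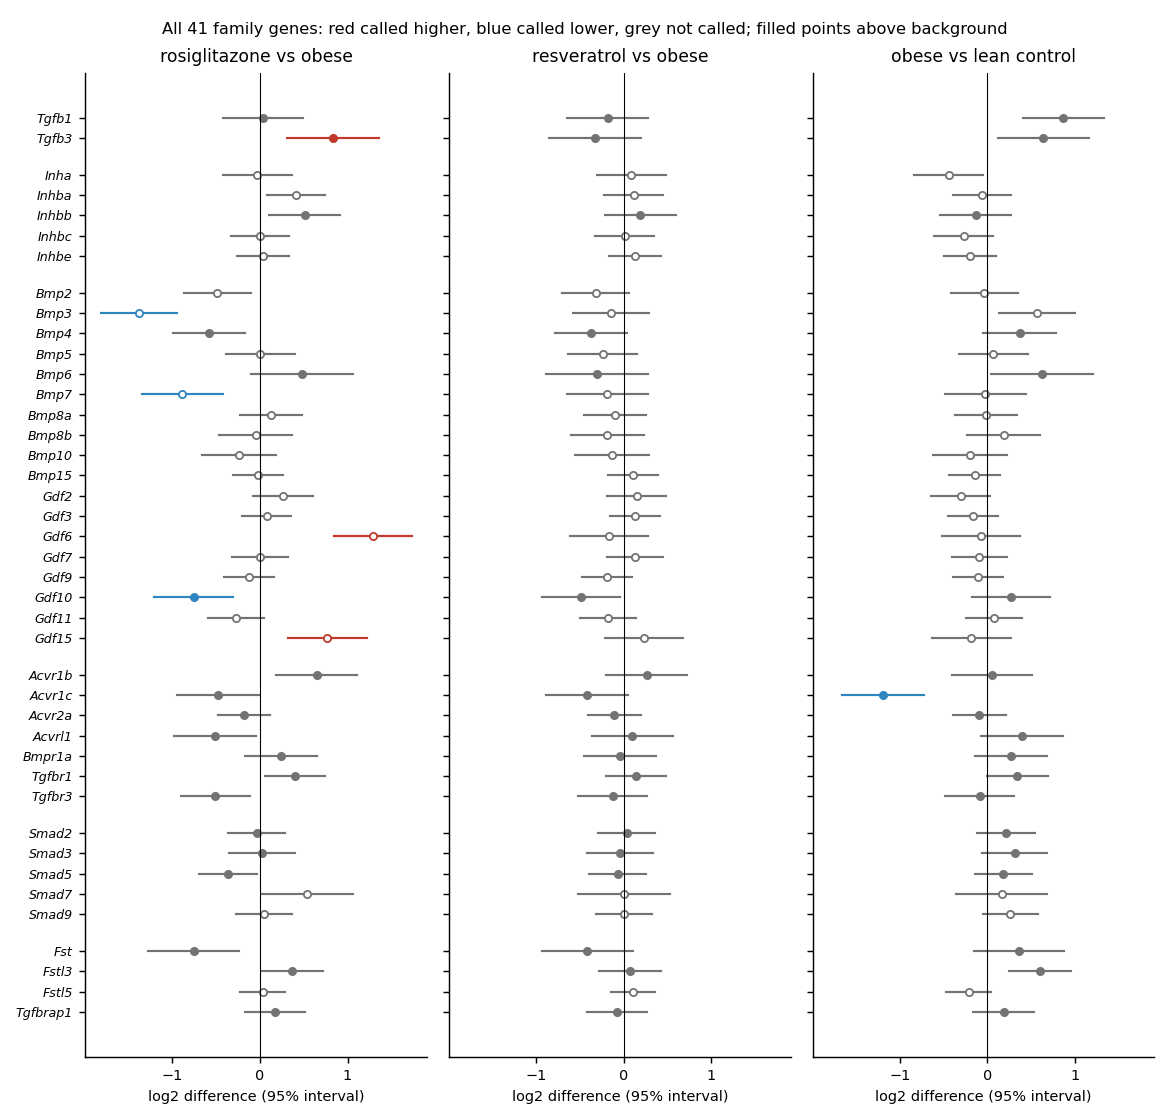
Log2 difference with its 95% interval for each of the 41 genes, grouped by role from ligands at the top to the follistatin family at the bottom, in rosiglitazone against obese, resveratrol against obese and obese against lean control arrays (n = 5 each). Red and blue genes passed an adjusted p of 0.05, higher and lower, and filled points mark genes above background over all arrays. In all, 6 genes are coloured in the rosiglitazone panel, Acvr1c in the obese panel and none in the resveratrol panel.

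Of the TGF-beta ligands, Tgfb3 was higher with rosiglitazone while no difference was called for Tgfb1. Tgfb3, a TGF-beta isoform active in wound repair and palate development, had 5.79, 5.76, 6.11, 6.96 and 5.83 log2 units in rosiglitazone arrays, against 4.80, 5.20, 5.84, 5.17 and 5.28 in obese arrays. Rosiglitazone replicate 4 was the highest array, and the groups overlapped only through obese replicate 3. The mean was 6.09 ± 0.51 with rosiglitazone and 5.26 ± 0.37 in obese rats (SD, n = 5 each), 1.78-fold higher (log2 difference 0.83 ± 0.25, adjusted p = 0.0388, with the standard error of the model). Without rosiglitazone replicate 4 the difference was 0.61 and missed the threshold (adjusted p = 0.144). It was 0.72 without obese replicate 1, and 0.81 to 0.84 without rosiglitazone replicate 3 or obese replicates 2, 4 or 5, where the adjusted p also rose past 0.05. Under quantile normalization it was 0.64 (adjusted p = 0.0585). Against resveratrol the difference was larger and had no overlap.

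Resveratrol arrays had 4.43, 5.27, 5.01, 4.95 and 4.99 log2 units of Tgfb3 and lean control arrays 4.63, 4.42, 5.59, 3.95 and 4.50. All 5 rosiglitazone arrays lay above all 5 resveratrol arrays (2.23-fold, log2 difference 1.16 ± 0.25, adjusted p = 0.00428), and this call held in all 19 alternatives. They also lay above all lean arrays (2.77-fold, log2 difference 1.47 ± 0.25, adjusted p = 0.000144), a call that ended with the array SD as a covariate (adjusted p = 0.0617). The promoter of Tgfb3 (300 bases around the RefSeq start, chr6:111456897-111457196 (reverse strand) of GRCr8) is shown because this ligand was the member above background over all arrays that rose with the drug. It was searched on both strands for AGGTCA, a binding site of nuclear receptors, and for DR1, the PPAR element made of a pair of AGGTCA repeats a single base apart. The Smad3 and Smad4 box CAGAC and the BMP-Smad element GGCGCC were searched as well. Capitals mark matches, and here there were none.
Tgfb3: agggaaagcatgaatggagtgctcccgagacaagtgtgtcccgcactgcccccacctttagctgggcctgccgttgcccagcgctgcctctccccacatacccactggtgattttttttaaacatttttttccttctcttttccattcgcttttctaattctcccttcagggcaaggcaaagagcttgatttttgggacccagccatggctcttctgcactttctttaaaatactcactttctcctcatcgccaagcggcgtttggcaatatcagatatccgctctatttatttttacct
Promoter sequences were at hand for 34 members, and a member with several was counted if any of them matched. AGGTCA was found in 6 of these 34 genes and in 16.2% of all 33469 promoters. DR1, whose matches count for AGGTCA too, was in 0 of the 34 genes and in 0.054% of all promoters. CAGAC was in 15 of the 34 genes and 50.1% of all promoters, and GGCGCC in 11 of the 34 genes and 11.02% of all promoters. A count by gene and a share by promoter are unlike measures.

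Tgfb1, the isoform best known for fibrosis and immune restraint, had 6.37, 6.26, 6.66, 5.90 and 6.78 log2 units in rosiglitazone arrays, against 6.03, 6.18, 6.63, 6.35 and 6.58 in obese arrays. The obese range lay inside the rosiglitazone range (log2 difference 0.04 ± 0.22, adjusted p = 0.955), with a 95% interval of -0.42 to 0.50. Resveratrol arrays read 5.79, 6.58, 6.10, 5.88 and 6.51, against 5.27, 5.11, 6.28, 4.98 and 5.79 in lean control arrays. Lean control replicate 3, at 6.28, was the only lean array above 5.79. In obese rats Tgfb1 was at 6.35 ± 0.26 and in lean rats at 5.49 ± 0.54, and the difference missed the threshold (log2 difference 0.87 ± 0.22, adjusted p = 0.061). It passed in 5 of 19 alternatives: median subtraction, the dim gene filter, array weights, the replicate block (adjusted p = 0.0229) and without lean control replicate 3 (log2 difference 1.07, adjusted p = 0.00175). With the array SD as a covariate its adjusted p was 0.57. Rosiglitazone rats had 1.87-fold more than lean rats (log2 difference 0.91 ± 0.22, adjusted p = 0.00402), a call that ended under quantile normalization and with that covariate.

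Bmp3 and Gdf10, also named Bmp3b, are close relatives, and both are known in mouse and human work as ligands that oppose other BMPs or restrain fat cell formation. Both were lower with rosiglitazone than in obese rats. Bmp3 had 1.81, 1.88, 1.91, 1.88 and 1.93 log2 units in rosiglitazone arrays, against 2.72, 3.40, 3.47, 3.08 and 3.67 in obese arrays. The 5 rosiglitazone arrays fell within 0.12 log2 units of each other, all near background, while obese arrays straddled the background limit. The groups did not overlap (2.61-fold lower, log2 difference -1.38 ± 0.21, adjusted p = 7.48e-05), and the call held in all 18 alternatives run. Resveratrol arrays had 2.92, 3.54, 2.86, 3.46 and 2.82, against 2.38, 2.14, 3.30, 2.47 and 3.19 in lean control arrays. Rosiglitazone arrays lay below every resveratrol array (log2 difference -1.24 ± 0.21, adjusted p = 0.000345) and below every lean array (log2 difference -0.81 ± 0.21, adjusted p = 0.00605).

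Gdf10 had 3.19, 4.12, 3.92, 4.45 and 4.35 log2 units in rosiglitazone arrays, against 4.26, 5.22, 5.35, 4.46 and 4.54 in obese arrays. Obese replicates 2 and 3 were high and rosiglitazone replicate 1 was low, and the other arrays of both groups lay between 3.92 and 4.54. Gdf10 fell by 0.76 ± 0.22 on the log2 scale, a 1.69-fold difference (adjusted p = 0.0255). The call ended without rosiglitazone replicates 1 or 3 or obese replicates 2 or 3 (adjusted p of 0.055 to 0.096) and in the fit on these 2 groups only, with differences of -0.76 to -0.55. Values in resveratrol arrays were 4.21, 4.70, 4.34, 3.94 and 4.19 and in lean control arrays 4.62, 4.45, 4.47, 4.47 and 4.48. Neither difference of the resveratrol arrays from obese or lean passed, and against obese Gdf10 was the sole member with an unadjusted p under 0.05 (log2 difference -0.49 ± 0.22, adjusted p = 0.999). Between rosiglitazone and lean rats Gdf10 missed the threshold (adjusted p = 0.0992). It passed there, lower, under quantile normalization (log2 difference -0.80, adjusted p = 0.00589) and with the array SD as a covariate (-0.88, adjusted p = 0.0357).

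The promoters of this pair are shown because both ligands moved the same way with the drug. That of Bmp3 lies at chr14:11041233-11041532 (reverse strand) and that of Gdf10 at chr16:9243262-9243561 (forward strand) of GRCr8, with matches to the same 4 motifs in capitals.
Bmp3: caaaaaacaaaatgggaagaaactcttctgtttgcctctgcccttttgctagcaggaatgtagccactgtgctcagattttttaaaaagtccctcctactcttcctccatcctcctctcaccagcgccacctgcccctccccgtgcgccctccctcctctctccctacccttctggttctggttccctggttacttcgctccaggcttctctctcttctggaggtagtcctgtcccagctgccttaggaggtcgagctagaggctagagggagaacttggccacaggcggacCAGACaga
Gdf10: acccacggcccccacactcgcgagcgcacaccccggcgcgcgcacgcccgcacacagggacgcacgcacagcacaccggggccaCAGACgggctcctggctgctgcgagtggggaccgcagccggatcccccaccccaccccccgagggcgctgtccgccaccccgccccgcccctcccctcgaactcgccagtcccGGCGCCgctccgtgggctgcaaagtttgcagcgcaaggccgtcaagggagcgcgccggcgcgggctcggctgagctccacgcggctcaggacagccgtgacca
Each held 1 CAGAC, at position 42 in Bmp3 and -166 in Gdf10 counted from the start site, and neither held AGGTCA. Gdf10 also had 1 GGCGCC. They differed in base composition, with 54.7% G and C and 6 CG pairs in Bmp3 and 76% and 39 in Gdf10, against medians of 51.7% and 7 over all promoters.

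Gdf6 and Gdf15 were higher with rosiglitazone and Bmp7 lower, all at levels close to background. Gdf6, a BMP-class ligand of joint and eye development, had 2.32, 3.45, 4.16, 3.16 and 3.17 log2 units in rosiglitazone arrays, against 2.02, 2.14, 1.66, 1.96 and 2.06 in obese arrays. Of the 5 rosiglitazone arrays 4 exceeded the background limit, replicate 1 did not, and every obese array was below it. The change was about 2.44-fold (log2 difference 1.29 ± 0.22, adjusted p = 0.000241) with no overlap. Resveratrol arrays, at 1.52, 2.16, 2.01, 1.62 and 1.70, and lean control arrays, at 2.11, 2.19, 1.85, 1.91 and 2.12, were also near background throughout. Rosiglitazone arrays lay above both groups without overlap (log2 difference 1.45 ± 0.22, adjusted p = 7.97e-05 against resveratrol and log2 difference 1.22 ± 0.22, adjusted p = 0.00019 against lean). Each of these 3 calls held in all 18 alternatives.

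Gdf15, a stress-induced hormone that curbs food intake through a hindbrain receptor, had 3.52, 2.02, 2.58, 2.88 and 2.51 log2 units in rosiglitazone arrays, against 2.15, 1.77, 2.0, 1.57 and 2.18 in obese arrays. Only rosiglitazone replicate 1 exceeded the background limit, and both group means were near background. The groups overlapped through rosiglitazone replicate 2 (1.71-fold, log2 difference 0.77 ± 0.22, adjusted p = 0.0229). Without rosiglitazone replicate 1 the difference was 0.57 (adjusted p = 0.0879), and without rosiglitazone replicate 4 or obese replicates 2 or 4 it was 0.68 to 0.73 and also missed the threshold. Arrays of the resveratrol group had 2.28, 2.63, 1.96, 1.97 and 1.96 and those of the lean control group 2.20, 2.63, 1.89, 1.81 and 2.04. Against lean control rats the rosiglitazone difference passed (log2 difference 0.59 ± 0.22, adjusted p = 0.0485) but in 7 of 18 alternatives only.

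Bmp7, a BMP known in mice for driving brown fat cell formation, had 1.62, 2.09, 2.07, 1.56 and 1.75 log2 units in rosiglitazone arrays, against 2.28, 3.34, 2.98, 2.27 and 2.66 in obese arrays. No rosiglitazone array reached the lowest obese array, 2.27. Bmp7 fell by 0.89 ± 0.22 on the log2 scale (adjusted p = 0.0107) in all 18 alternatives, with both means near background. Resveratrol arrays read 2.67, 3.02, 2.61, 2.67 and 1.63, and lean control arrays 2.40, 2.51, 2.82, 3.01 and 2.90. Resveratrol replicate 5, at 1.63, lay among the rosiglitazone arrays. The difference between the treatments missed the threshold (log2 difference -0.70 ± 0.22, adjusted p = 0.0551) and passed without that array (adjusted p = 0.00549). With all arrays kept it passed under median subtraction and with the array SD as a covariate (adjusted p = 0.0488 and 0.0284). It also passed in the fit on these 2 groups only, with array weights and with the replicate block (adjusted p = 0.0490, 0.0282 and 0.0416). Rosiglitazone arrays lay below all lean arrays (log2 difference -0.91 ± 0.22, adjusted p = 0.00401).

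**Figure D2:**
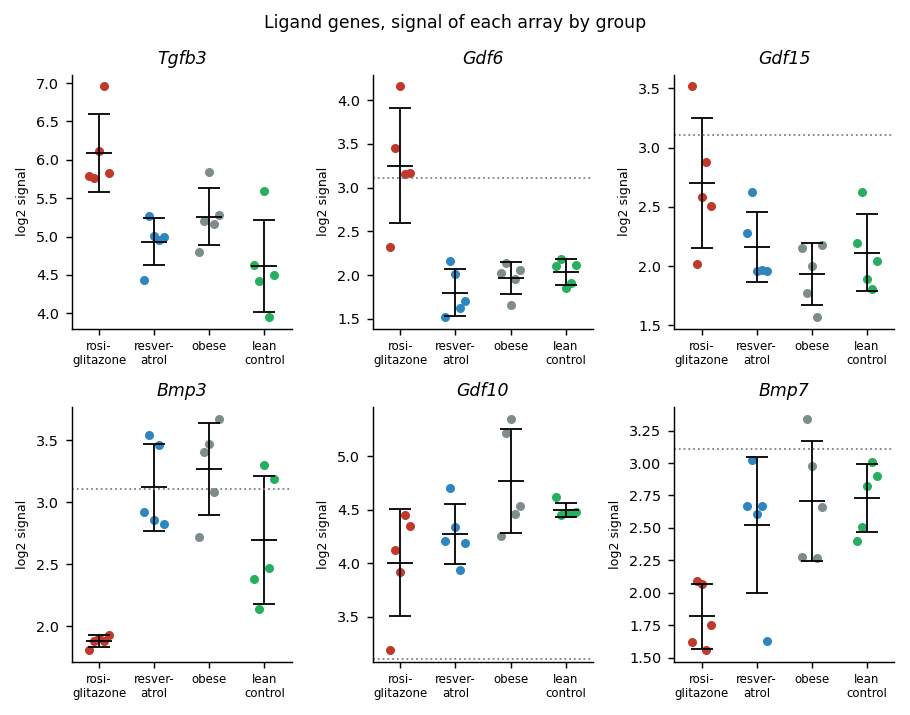
Log2 signal of each array (points), with the mean and SD (black), for the 6 ligand genes called between rosiglitazone and obese rats, in rosiglitazone, resveratrol, obese and lean control groups (n = 5 each). Dotted lines mark the background limit of 3.11. Tgfb3, Gdf6 and Gdf15 sit higher and Bmp3, Gdf10 and Bmp7 lower in rosiglitazone arrays than in obese arrays, with no overlap for Gdf6, Bmp3 and Bmp7.

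Bmp6 and Bmp2 were called between rosiglitazone and lean rats. Bmp6, the ligand that sets hepcidin and iron levels and is made by vessel lining cells, had 6.06, 5.69, 6.33, 6.16 and 5.53 log2 units in rosiglitazone arrays, against 4.64, 5.10, 6.23, 3.95 and 4.35 in lean control arrays. Lean control replicate 3, at 6.23, lay within the rosiglitazone range. The rosiglitazone difference was 2.14-fold (log2 difference 1.10 ± 0.28, adjusted p = 0.00564) and ended under quantile normalization and with the array SD as a covariate (adjusted p = 0.051 and 0.509). Resveratrol arrays had 4.90, 5.60, 5.08, 5.31 and 4.95 and obese arrays 5.49, 5.71, 5.79, 4.92 and 5.44. Neither passed against lean (adjusted p = 0.574 and 0.241), and without lean control replicate 3 both did (adjusted p = 0.0439 for resveratrol, and for obese rats log2 difference 0.96, adjusted p = 0.00605). The obese difference also passed with array weights (adjusted p = 0.0378). Against resveratrol rats the rosiglitazone difference missed the threshold (log2 difference 0.79 ± 0.28, adjusted p = 0.0983) and passed in the fit on these 2 groups only and with array weights (adjusted p = 0.00932 and 0.0113). The other such gene, Bmp2, a BMP that promotes bone and fat lineages, was near background in every group, with 2.23, 2.30, 1.96, 1.95 and 2.37 in rosiglitazone arrays, against 2.17, 2.72, 3.14, 2.31 and 3.07 in lean control arrays. It was just past the threshold (log2 difference -0.52 ± 0.19, adjusted p = 0.0417) and passed in 9 of 18 alternatives. Against obese rats it missed the threshold (adjusted p = 0.112) and passed with the array SD as a covariate, with array weights and without obese replicate 1 (adjusted p = 0.0488, 0.0214 and 0.0442). The other Bmp2 values were 2.38, 2.55, 2.11, 2.20 and 2.41 in resveratrol arrays and 2.15, 3.04, 2.76, 2.76 and 2.52 in obese arrays.

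Bmp4, which commits precursors to the fat lineage in mice, was above background at 4.25 ± 0.36 with rosiglitazone and 4.84 ± 0.42 in obese rats and missed the threshold (log2 difference -0.58 ± 0.20, adjusted p = 0.0733). It passed, lower, under quantile normalization (adjusted p = 0.0134), with the array SD as a covariate, and without rosiglitazone replicate 2 or obese replicate 1. The dim gene filter and array weights gave a pass too (adjusted p = 0.0462 and 0.0125). Under quantile normalization Bmp4 was also lower with rosiglitazone than in lean rats (adjusted p = 0.0445). The other 10 BMP and GDF genes, Bmp5, Bmp8a, Bmp8b, Bmp10, Bmp15, Gdf2, Gdf3, Gdf7, Gdf9 and Gdf11, were near background in every group. None of them passed in any comparison, and Bmp10 passed between rosiglitazone and lean rats without lean control replicate 3 or rosiglitazone replicate 1. Their signals give no bound on a change in RNA.

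No activin or inhibin subunit passed on the deposited values. Inhbb, the subunit of activin B, which signals through Acvr1c, was the member of this group above background. It averaged 5.38 ± 0.25 with rosiglitazone, 5.06 ± 0.25 with resveratrol, 4.87 ± 0.33 in obese and 5.00 ± 0.45 in lean rats (SD, n = 5 each). Between rosiglitazone and obese rats the 95% interval of the log2 difference was 0.11 to 0.92 (adjusted p = 0.115, and 0.0386 with array weights). Inhba, the activin A subunit, stayed near background in all groups. Its 5 rosiglitazone arrays nonetheless lay above all 5 obese arrays, with means of 2.41 ± 0.09 and 2.01 ± 0.21 (adjusted p = 0.128), and against lean rats Inhba passed under quantile normalization (adjusted p = 0.0405). Inha, which makes inhibins, and the liver subunits Inhbc and Inhbe were near background. Without lean control replicate 3, Inha was lower in rosiglitazone, resveratrol and obese rats than in lean rats (adjusted p = 0.00396, 0.0319 and 0.0167), and Inhbb differed between rosiglitazone and lean rats (adjusted p = 0.0404). Inha also passed between rosiglitazone and lean rats with array weights (adjusted p = 0.0369).

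Among the measured receptors Acvr1c had the largest log2 difference in each comparison with lean rats. Acvr1c encodes ALK7, the type I receptor for activin B, Gdf3 and nodal, which is abundant in fat cells and known in mice to restrain lipolysis. Obese arrays had 6.18, 6.41, 6.55, 6.21 and 6.16 log2 units, against 7.62, 7.68, 6.53, 7.81 and 7.83 in lean control arrays. In lean rats 4 arrays lay between 7.62 and 7.83, above every obese array, and lean control replicate 3, at 6.53, lay within the obese range. Acvr1c fell by 1.19 ± 0.23 on the log2 scale in obese rats, a 2.28-fold difference (adjusted p = 0.0171). Without lean control replicate 3 the difference was -1.43 (adjusted p = 5.93e-05). The call ended with the array SD as a covariate (log2 difference -1.02, adjusted p = 0.291). When lean control replicates 1, 2, 4 or 5 or obese replicates 3 or 5 were left out, the difference stayed at -1.25 to -1.11, with adjusted p of 0.050 to 0.076.

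Rosiglitazone arrays had 5.84, 6.12, 5.02, 6.23 and 5.91 log2 units of Acvr1c and resveratrol arrays 6.21, 6.06, 5.86, 5.86 and 5.41. Every array of both treatments lay below every lean array, lean control replicate 3 included. Against lean rats the log2 difference was -1.67 ± 0.23 with rosiglitazone (3.18-fold, adjusted p = 8.64e-06) and -1.61 ± 0.23 with resveratrol (3.06-fold, adjusted p = 0.00152). Both calls held in all 19 alternatives. The 3 comparisons with lean rats share the lean arrays. Against obese rats the differences were smaller and did not pass, at -0.48 ± 0.23 with rosiglitazone (adjusted p = 0.225) and -0.42 ± 0.23 with resveratrol (adjusted p = 0.999). Between the treatments the interval of the log2 difference was -0.53 to 0.41. No marker list of another cell type had a called member lower in obese than in lean rats, and of 13 fat cell markers Lep was higher and Cfd lower, calls that ended with the array SD as a covariate and without several single arrays of either group. Lean control replicate 3 stood apart in both markers. It read 10.27 in Lep, against 7.24 to 8.10 in the other lean arrays, and 8.15 in Cfd, against 9.08 to 9.53. Gdf3, a ligand of this receptor, was near background in every group.

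The Acvr1c promoter is shown as that of the member with the largest fall from lean rats. It lies at chr3:63301105-63301404 (reverse strand) of GRCr8, is 73.7% G and C with 31 CG pairs, and has no match to the 4 motifs.
Acvr1c: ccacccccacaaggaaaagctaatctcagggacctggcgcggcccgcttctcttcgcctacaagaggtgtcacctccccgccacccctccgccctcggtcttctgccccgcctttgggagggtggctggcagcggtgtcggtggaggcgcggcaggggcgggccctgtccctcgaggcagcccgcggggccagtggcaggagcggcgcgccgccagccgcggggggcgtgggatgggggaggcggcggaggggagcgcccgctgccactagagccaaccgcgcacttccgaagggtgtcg

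Other receptors differed between rosiglitazone and lean rats, and none between rosiglitazone and obese rats. Tgfbr1, the type I receptor for TGF-beta, had 5.21, 5.25, 5.57, 5.58 and 5.75 log2 units in rosiglitazone arrays, against 4.61, 4.75, 4.97, 4.19 and 5.11 in lean control arrays. These groups did not overlap (1.67-fold, log2 difference 0.74 ± 0.17, adjusted p = 0.00209), and the call ended under quantile normalization and with the array SD as a covariate. Resveratrol arrays had 4.99, 5.46, 5.35, 4.89 and 5.37, and obese arrays 4.80, 4.92, 5.20, 5.22 and 5.20. Their means fell between those of the other groups, and neither differed from lean past the threshold (adjusted p = 0.116 and 0.281), though resveratrol did without lean control replicate 3 (adjusted p = 0.0382). Tgfbr3, betaglycan, is a co-receptor that presents TGF-beta and helps inhibin bind. It had 6.86, 6.94, 7.23, 6.93 and 7.53 in rosiglitazone arrays, against 7.86, 7.22, 7.94, 7.40 and 8.07 in lean control arrays. It fell by 0.60 ± 0.19 on the log2 scale with overlap (adjusted p = 0.0238), in 14 of 19 alternatives. Against obese rats it missed the threshold (adjusted p = 0.105). It passed there under quantile normalization, with the array SD as a covariate and with array weights (adjusted p = 0.00146, 0.00446 and 0.0363). Against resveratrol rats it missed the threshold (adjusted p = 0.275) and passed, lower, under the first 2 of these settings (adjusted p = 0.00779 and 0.0140). Resveratrol arrays had 7.68, 7.82, 7.58, 7.12 and 7.23 and obese arrays 7.23, 7.57, 8.13, 7.58 and 7.53.

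Acvr1b, the activin receptor ALK4, had 4.83, 3.99, 4.71, 4.10 and 4.93 log2 units in rosiglitazone arrays, against 3.45, 3.90, 4.30, 3.54 and 3.86 in lean control arrays. The groups overlapped (1.63-fold, log2 difference 0.70 ± 0.22, adjusted p = 0.0235) and 12 of 19 alternatives passed. Values of 4.45, 4.23, 4.01, 3.92 and 4.02 were read in resveratrol arrays and 2.98, 3.88, 4.28, 3.99 and 4.19 in obese arrays, where replicate 1 was low. Against obese rats the rosiglitazone difference missed the threshold (adjusted p = 0.0728). It passed with the dim gene filter (adjusted p = 0.0453) and without rosiglitazone replicate 2 or obese replicate 3. Acvrl1, the type I receptor ALK1 of vessel lining cells, averaged 4.83 ± 0.52 with rosiglitazone and 5.35 ± 0.12 in obese rats, and no comparison passed as fitted (adjusted p = 0.18 here). It passed, lower, under quantile normalization and with the array SD as a covariate (adjusted p = 0.0403 and 0.0332). The same 2 settings gave a pass against resveratrol rats (adjusted p = 0.0185 and 0.0102, against 0.108 as fitted).

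Bmpr1a, Acvr2a and Smad5, picked by probe set signal among the members that no comparison called, are given for every array. Bmpr1a, a type I BMP receptor, had 6.44, 6.61, 6.40, 6.93 and 6.83 in rosiglitazone, 6.01, 6.85, 6.59, 6.41 and 5.97 in resveratrol, 6.06, 6.24, 6.67, 6.53 and 6.53 in obese and 6.46, 5.42, 6.56, 6.08 and 6.15 in lean control arrays. Acvr2a, a type II receptor shared by activins and BMPs, had 5.35, 5.70, 5.66, 5.99 and 5.89 in rosiglitazone, 5.93, 5.95, 5.75, 5.72 and 5.62 in resveratrol, 5.90, 5.84, 6.12, 5.86 and 5.79 in obese and 6.15, 6.04, 5.90, 5.61 and 6.26 in lean control arrays. Smad5, which carries the BMP signal to the nucleus, had 5.36, 5.29, 4.99, 5.30 and 5.53 in rosiglitazone, 5.59, 5.66, 5.73, 5.55 and 5.40 in resveratrol, 5.46, 5.47, 5.82, 5.74 and 5.79 in obese and 5.38, 5.33, 5.82, 4.94 and 5.89 in lean control arrays. Groups of these 3 genes overlapped in every comparison. Rosiglitazone and obese arrays differed in Smad5 by -0.36 ± 0.16 (adjusted p = 0.184), which passed under quantile normalization (adjusted p = 0.00519) and with the array SD as a covariate. Bmpr1a passed against lean rats without lean control replicates 1 or 3 (adjusted p = 0.0633 with all arrays) and with the dim gene filter (adjusted p = 0.0428). Under quantile normalization Acvr2a and Smad5 were also lower in rosiglitazone than in lean rats, by log2 differences of -0.73 and -0.58 (adjusted p = 0.00058 and 0.00129, against 0.174 and 0.443 on the deposited values), and Smad5 than in resveratrol rats (adjusted p = 0.0183).

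**Figure D3:**
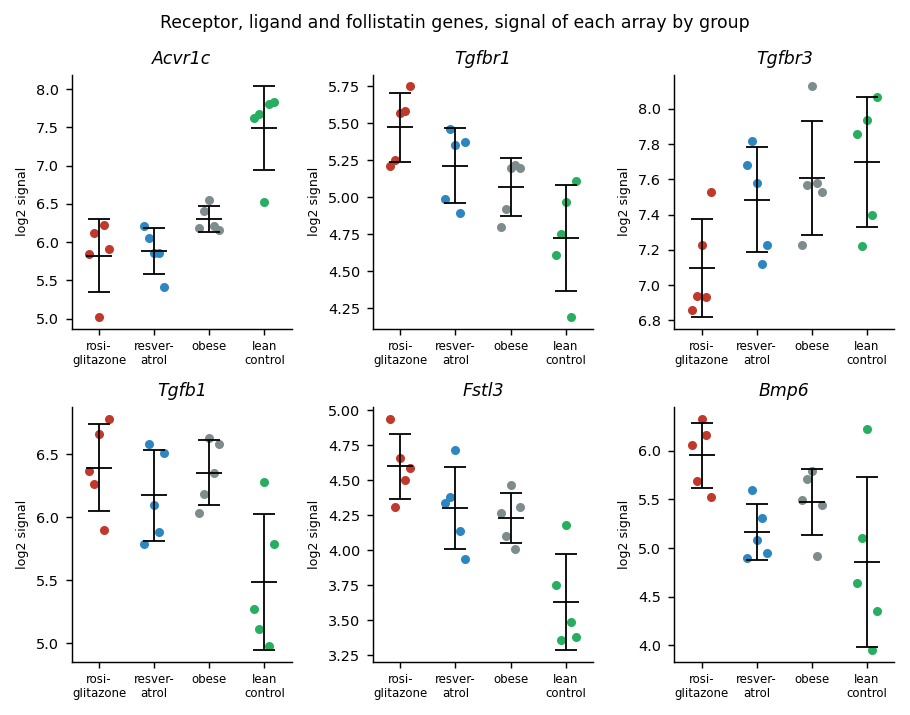
Log2 signal of each array (points), with the mean and SD (black), for Acvr1c, Tgfbr1, Tgfbr3, Tgfb1, Fstl3 and Bmp6 in rosiglitazone, resveratrol, obese and lean control groups (n = 5 each). In Acvr1c 4 lean control arrays lie above 7.6 and replicate 3 lies at 6.53, level with the obese arrays. The same array is the highest lean array in Tgfb1, Fstl3 and Bmp6.

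Of the Smads only Smad7 was called, in rosiglitazone against lean rats. Smad7, which blocks the receptors in negative feedback, had 2.66, 2.91, 3.51, 3.53 and 2.98 log2 units in rosiglitazone arrays, against 1.92, 3.04, 3.24, 1.83 and 2.04 in lean control arrays. Lean control replicates 2 and 3 overlapped the rosiglitazone arrays, and the lean mean was near background (log2 difference 0.70 ± 0.25, adjusted p = 0.0438, 10 of 18 alternatives). Resveratrol arrays had 3.0, 2.48, 2.35, 2.22 and 2.83 and obese arrays 2.47, 2.46, 3.12, 2.12 and 2.70. The signal carriers Smad2 and Smad3, above background, differed by -0.04 ± 0.16 and 0.02 ± 0.18 between rosiglitazone and obese rats, and Smad9 was near background. Smad9 passed between rosiglitazone and lean rats without lean control replicate 3 (adjusted p = 0.0482).

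Fstl3, a secreted protein that binds and neutralizes activins and myostatin, was higher in both treated groups than in lean rats. It had 4.94, 4.31, 4.66, 4.50 and 4.59 log2 units in rosiglitazone arrays, against 3.75, 3.36, 4.18, 3.49 and 3.38 in lean control arrays. They did not overlap (1.95-fold, log2 difference 0.97 ± 0.17, adjusted p = 0.000186), and the call held in all 19 alternatives. Resveratrol arrays, with 4.34, 4.38, 4.72, 4.14 and 3.94, overlapped the lean arrays through lean control replicate 3 (log2 difference 0.67 ± 0.17, adjusted p = 0.0378), and 10 of 19 alternatives passed. Obese arrays, with 4.27, 4.10, 4.47, 4.01 and 4.31, missed the threshold against lean (log2 difference 0.60 ± 0.17, adjusted p = 0.0842) and passed without lean control replicate 3 (adjusted p = 0.00493). With all arrays kept they passed with array weights and with the replicate block (adjusted p = 0.0288 and 0.0446). Follistatin itself, Fst, averaged 3.78 ± 0.51 with rosiglitazone and 4.54 ± 0.51 in obese rats (log2 difference -0.76 ± 0.25, adjusted p = 0.0617). It passed, lower, under quantile normalization (adjusted p = 0.0247) and with the array SD as a covariate. The dim gene filter and array weights gave a pass too (adjusted p = 0.0373 and 0.0202). So did leaving out rosiglitazone replicates 3 or 5 or obese replicate 4. Fstl5 was near background, and Tgfbrap1, which binds TGF-beta receptors, passed in no comparison, and between rosiglitazone and lean rats only without lean control replicate 3 (adjusted p = 0.0216).

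Beside the family, 59 other genes of the pathway were measured, and 9 differed between rosiglitazone and obese rats, 5 higher and 4 lower, where 9% of all genes did. The list was written with earlier results of these data known, and all 9 are named, also Tll1, Junb and Pcolce, which are not among the 6 largest and were added after their values were seen. The split was 3 higher and 6 lower under quantile normalization and 5 higher and 7 lower with the array SD as a covariate. Among 9 genes listed under latency and ligand activation 2 were higher and 1 lower, and release or activation of TGF-beta was not tested. Ltbp2, a matrix protein placed by name in the latent TGF-beta binding family, had 5.52, 5.02, 5.81, 5.67 and 4.94 log2 units in rosiglitazone arrays, against 3.77, 3.26, 3.40, 3.26 and 4.22 in obese arrays. The groups did not overlap (3.51-fold, log2 difference 1.81 ± 0.27, adjusted p = 6.69e-05). Pcolce, an enhancer of collagen processing, rose 1.58-fold (adjusted p = 0.0469), and Tll1, a protease that cleaves the BMP antagonist chordin, fell by 0.93 (adjusted p = 0.00559) with its rosiglitazone mean near background. The Pcolce difference was 0.49 to 0.67, with adjusted p over 0.05, under quantile normalization, with the replicate block (adjusted p = 0.0574), and without rosiglitazone replicates 3, 4 or 5 or obese replicates 1, 2, 3 or 4.

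Among 15 secreted antagonists 2 were lower, Chrdl1 and Dcn. Chrdl1, a chordin-like protein that binds BMPs, had 6.75, 6.42, 6.78, 6.84 and 7.41 log2 units in rosiglitazone arrays, against 8.24, 8.12, 8.50, 7.98 and 8.66 in obese arrays. No array overlapped, and it fell by 1.46 ± 0.19 on the log2 scale (adjusted p = 1.24e-05). Dcn, decorin, which binds TGF-beta and is also a fibroblast marker, fell by 1.07 (adjusted p = 0.00271). Among 15 target genes 3 were higher and 1 lower. Ccn2, a matrix-associated TGF-beta target, had 6.63, 5.51, 5.97, 5.82 and 5.01 in rosiglitazone arrays, against 3.81, 4.36, 4.06, 4.42 and 4.70 in obese arrays, a rise of 2.86-fold without overlap (log2 difference 1.52 ± 0.23, adjusted p = 5.1e-05). The BMP target Id1 had 4.09, 4.99, 4.88, 5.22 and 5.09 in rosiglitazone arrays, against 5.70, 6.18, 6.37, 5.37 and 5.93 in obese arrays. Id1 fell by 1.06 ± 0.27, also without overlap (adjusted p = 0.0125), and without rosiglitazone replicate 1 its adjusted p was 0.0507. The smooth muscle gene Tagln (adjusted p = 0.0163) and the transcription factor Junb (adjusted p = 0.0158) were the other targets that rose. The obese mean of Junb, 2.85, was near background. Tagln ended under quantile normalization (adjusted p = 0.0833) and without obese replicate 5, and Junb, at differences of 0.65 to 0.67, without rosiglitazone replicates 1 or 3 or obese replicate 1. No member passed among 4 co-receptors and decoys, 11 intracellular regulators or 5 other ligands.

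**Figure D4:**
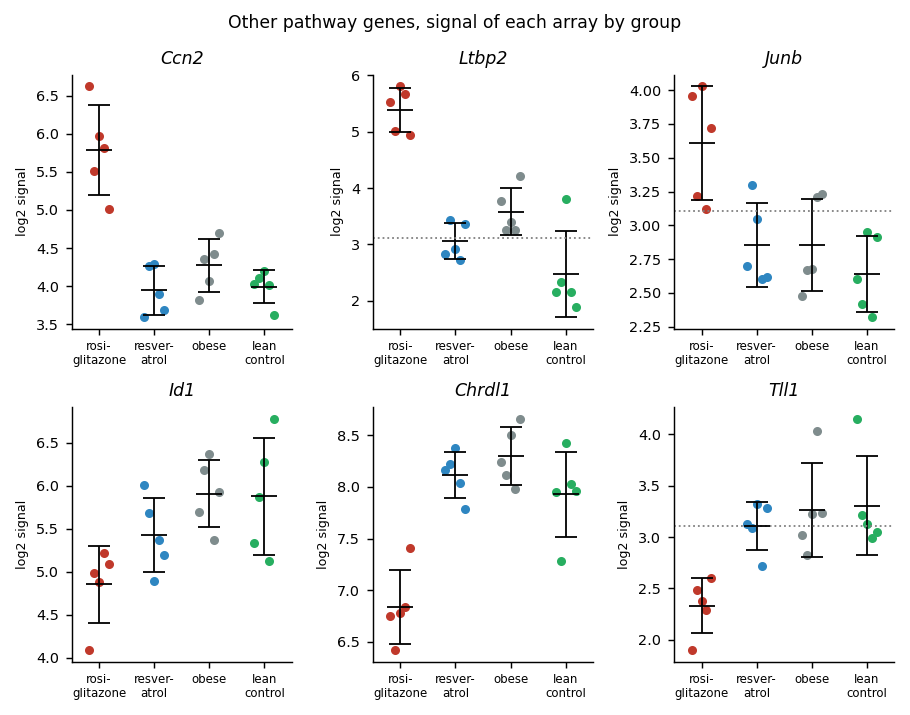
Log2 signal of each array (points), with the mean and SD (black), for pathway genes outside the family in rosiglitazone, resveratrol, obese and lean control groups (n = 5 each). Dotted lines mark the background limit of 3.11. Ccn2, Ltbp2 and Junb sit higher and Id1, Chrdl1 and Tll1 lower in rosiglitazone arrays than in obese arrays, with overlap only in Junb.

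Markers of other cells moved with rosiglitazone as well. Of 13 measured endothelial markers 7 were lower and 1 higher than in obese rats, and of 11 fibroblast and preadipocyte markers 5 were lower and none higher. The log2 of the summed signal of the endothelial list ran from 8.90 to 9.13 in rosiglitazone arrays, against 9.73 to 10.16 in obese arrays. For the fibroblast list it ran from 10.23 to 11.16 in rosiglitazone arrays, against 10.92 to 11.59 in obese arrays. Of 8 smooth muscle and pericyte markers 1 was higher and 2 lower, of 7 mesothelial markers 1 was higher, and of 15 macrophage markers none passed. Fat cell markers had 2 of 13 higher, and the B cell, mast cell, and T and NK cell lists had no call. Of the endothelial markers Cldn5 had a mean near background with rosiglitazone, at 2.62 ± 0.25, against 4.96 ± 0.46 in obese rats. The fibroblast marker Fap was at 3.23 ± 0.30 with rosiglitazone and near background in obese rats, at 2.98 ± 0.31. The part of these cells in the ligand, Id1 and Chrdl1 differences was not tested.

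Obese and lean rats differed in 1 of 41 members (2.44%), where 0.721% of all genes were called, 0.584% higher and 0.137% lower, and that member was Acvr1c. No member lacked overlap, where 2.13% of all genes did. None of the 59 other genes passed in limma. Ltbp2 came closest, higher in obese rats (log2 difference 1.11, adjusted p = 0.0536), with its lean mean near background at 2.47. It passed under quantile normalization, median subtraction, the dim gene filter, array weights and the replicate block. At an unadjusted p under 0.05 there were 7 members and 16 of the 59, where 18.2% of all genes passed. Without lean control replicate 3, 7 members were called, 5 higher and 2 lower, Acvr1c and Inha, and 9 of the 59 other genes. Among those 9, Ltbp2 and Dcn were higher in obese rats (adjusted p = 0.000128 and 0.00247). In that fit Bmp3 and Tgfb3 were higher in obese rats too, by 0.72 and 0.88 log2 units (adjusted p = 0.0226 and 0.0139), and Bmp3 also passed with array weights (adjusted p = 0.0243). Over the whole array 1856 genes were called without lean control replicate 3, against 105 with it. Of 15 macrophage markers 4 were higher in obese rats, with list means of 5.87 to 6.48, against 4.81 to 6.45 in lean rats, and 1 of 11 fibroblast markers. Their part in the Tgfb1 and Fstl3 values was not tested.

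Resveratrol and obese rats differed in none of the 41 members, nor in any of all 14557 genes (0%), in limma. At an unadjusted p under 0.05 there was 1 member and 0 of the 59 other pathway genes, where 2.82% of all genes passed. Differences ran from -0.49 for Gdf10 to 0.26 for Acvr1b. Of the 19 members above background, all had 95% intervals within 2-fold in either direction and 10 had them within 1.5-fold. Over all 41 members the counts were 41 and 26. The 22 members near background are in those counts, and their signal gives no bound on a change in RNA. Tgfb3 differed by -0.33 ± 0.25, Gdf6 by -0.17 ± 0.22 and Bmp3 by -0.15 ± 0.21.

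Rosiglitazone and resveratrol rats differed in 3 of 41 members (7.32%), where 7.56% of all genes were called, 5.63% higher and 1.92% lower, a share near the background. These were Tgfb3 and Gdf6, higher with rosiglitazone, and Bmp3, lower, each without overlap. The split was 2 higher and 4 lower under quantile normalization and with the array SD as a covariate, 2 higher and 2 lower under median subtraction, 4 higher and 2 lower with array weights, and 3 higher and 2 lower in the fit on these 2 groups only. Of the 59 other pathway genes 7 passed, Ccn2 (3.59-fold), Ltbp2 (5.07-fold), Junb and Tagln higher and Chrdl1, Dcn and Tll1 lower, or 4 higher and 5 lower with that covariate. The resveratrol means of Ltbp2 and Junb, 3.05 and 2.85, were near background, so the Ltbp2 fold is approximate. Junb and Tll1 here ended without rosiglitazone replicate 1 and without several other single arrays, and Tll1 under quantile normalization. Without rosiglitazone replicate 2, or with array weights, Gdf15 passed here too (adjusted p = 0.0415 and 0.0438). For Bmp7, Gdf10 and Gdf15, called against obese rats, the treatments did not differ past the threshold, with intervals of -1.16 to -0.24, -0.72 to 0.18 and 0.09 to 0.99. Both treatments were set against the same obese arrays above.

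Rosiglitazone and lean rats differed in 14 of 41 members (34.1%), 9 higher and 5 lower, where 25% of all genes were called, 18.4% higher and 6.55% lower. At an unadjusted p under 0.05 there were 20 members, where 37.2% of all genes passed. Among members above background the share was 42.1%, against 40.6% of genes above background. Genes above background had a median log2 difference of 0.31 here, against 0.01 over all genes, and the 19 members 0.34. The 9 higher were Tgfb3, Tgfb1, Gdf6, Gdf15, Bmp6, Tgfbr1, Acvr1b, Smad7 and Fstl3, and the 5 lower Acvr1c, Bmp7, Bmp3, Tgfbr3 and Bmp2. With the array SD as a covariate 8 were called, 2 higher and 6 lower, and under quantile normalization 14, 6 higher and 8 lower. Without lean control replicate 3 the count was 18, 12 higher and 6 lower. Gdf15 and Bmp2 then missed the threshold (adjusted p = 0.0759 and 0.0953), and Bmpr1a, Inhbb, Smad9 and Tgfbrap1 joined those higher and Inha and Bmp10 those lower. Of 15 macrophage markers 4 were higher with rosiglitazone than in lean rats and 7 with resveratrol. Resveratrol and lean rats differed in 2 members (4.88%), Fstl3 higher and Acvr1c lower, where 2.63% of all genes were called. With the array SD as a covariate the count was 0 higher and 1 lower, and it was 6 without lean control replicate 3, where Tgfb1 (adjusted p = 0.00526), Bmp6 and Tgfbr1 were higher too and Inha lower. Tgfb1 also passed with array weights and with the replicate block (adjusted p = 0.0352 and 0.0361).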

How the data were processed

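Total RNA of 20 epididymal samples was measured on Affymetrix strips of the type Rat Gene 2.1 ST, 1 array per sample, per the labels. The authors deposited log2 signal values for 36685 features, made with RMA per the submitters' processing notes, whose version is not given in the sources used here. Background correction and normalization within RMA were thus fixed and can compress folds of dim genes. Array medians ran from 2.50 to 2.74, and no columns were identical or unmapped.

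Probe sets were named from the array annotation held with the series: 14824 named 1 gene, 829 several and 21032 none. The probe set with the highest mean was used for 234 genes with more than 1, giving 14557 genes. Members, gene lists and tests were chosen with earlier results of these data known. Named with a value for every array were members called in any comparison, Acvr1c, and the 3 of highest mean called in none. Of the lists, the rule named genes called, at most 6 per comparison by size, and more were added after their values were seen.

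Group means over all 20 arrays were fitted in R 4.3.3 by limma 3.58.1, with Benjamini-Hochberg adjustment over all genes, in 6 comparisons. P-values set each difference between group means against the spread of arrays within the groups. The median standard error was 0.17 log2 units, and precision is limited by 5 arrays per group. Alternatives were quantile normalization, median subtraction, an array SD covariate, a filter on dim genes, averaged probe sets, the 2 groups only, a trended robust variance, array weights, a replicate block and each array left out. Scanner files were not used here, so other background corrections and slides were not tried. Promoter sequences are from RefSeq, GRCr8. Figures were drawn with matplotlib 3.10.9.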

Additional observations from a re-analysis of the deposited data

Results flagged for a closer look

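Among 72 sets of 5 arrays, 18 genes in 4 groups, 2 had an array far from the others by Dixon's test at the 95% level, which chance alone gives in about 1 of 20 sets. Acvr1c in lean control replicate 3 was low at 6.53 log2 units, with the other lean arrays at 7.62 to 7.83. Gdf10 in lean control replicate 1 was high at 4.62, with the other lean arrays at 4.45 to 4.48, a gap smaller than the spread of Gdf10 in every other group.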

How the results depend on the processing

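Between rosiglitazone and obese rats the count of members called was 6, with 10 under quantile normalization, 12 with the array SD covariate, 11 with array weights and 3 to 8 when any 1 array was left out, and 5 or 6 under the other alternatives. The members counted were not the same under the dim gene filter, which takes out Bmp3, Gdf6, Gdf15 and Bmp7 by construction. Acvr1b, Bmp4 and Fst passed under that filter (adjusted p = 0.0453, 0.0462 and 0.0373). For the 59 other pathway genes the count of 9 moved to 15 with array weights. Between obese and lean rats the count of 1 moved to 2 under median subtraction, 0 with the array SD covariate, 2 with the dim gene filter, 5 with array weights, 3 with the replicate block and 0 to 7 with an array left out. Other pathway genes moved there from 0 to 1 under quantile normalization, median subtraction, the dim gene filter and the replicate block, 7 with array weights and 0 to 9 with an array left out. Between rosiglitazone and resveratrol the count of 3 moved to 6 under quantile normalization, the array SD covariate and array weights, 1 with the dim gene filter and 5 with the 2 groups only. Of the members called in this comparison, the dim gene filter takes out Bmp3 and Gdf6 by construction. Against lean rats the rosiglitazone count of 14 moved to 8 with the array SD covariate and 9 with the dim gene filter, and the resveratrol count of 2 to 1 with that covariate and with the 2 groups only, and to 1 to 6 with an array left out. Resveratrol and obese rats gave 0 members in limma in every alternative. No called value of a member or of the 9 pathway genes changed sign, and the fat cell marker Lep did between rosiglitazone and lean rats, from a log2 difference of 1.10 to -0.10 with the array SD covariate. Causes were not tested where none is named. Groups share replicate numbers, and no label pairs them. Deviations of same-numbered arrays correlated from -0.28 to 0.40, over 0.1 in 6 of 30 pairs, and an array matched its own number best in 8 of 60 comparisons, so the replicate block is no pairing. It changed no count of members by over 1.5 times but that of obese and lean rats, which was 3.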

Other observations

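Acvrl1 and Acvr1b are neighbours on rat chromosome 7 in the RefSeq gene order, as are Inhbe and Inhbc there and Gdf10 and Gdf2 on chromosome 16. Neighbours did not share calls. Acvr1b was higher in rosiglitazone than in lean rats (log2 difference 0.70 ± 0.22, adjusted p = 0.0235), and Acvrl1 did not pass (log2 difference -0.12 ± 0.23, adjusted p = 0.743). Gdf10 was lower with rosiglitazone than in obese rats, and Gdf2 was near background (log2 difference 0.26 ± 0.16, adjusted p = 0.388). Whether neighbouring genes differ in response was not tested.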
